A study of Homo sapiens with 2 samples.

Results

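The 2321 distal peaks of human chromosome 17 were examined along the chromosome. A distal peak is a stretch of open chromatin that the annotation of the peak lists places in an intron or between genes. Members were the peaks of chromosome 17 with either class in any of the 3 lists, out of 56159 listed peaks of all classes and chromosomes and 3049 on chromosome 17. Of the members, 595 were on the list common to both libraries, 669 on the control-specific list and 1057 on the depleted-specific list. The intron class held 1367 members (58.9%, exact 95% interval 56.9 to 60.9) and the intergenic class 954.

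The lists came from FAIRE-seq, in which formaldehyde-fixed chromatin is sheared and the DNA that is free of protein crosslinks is recovered and sequenced. The cells were HepG2, a human liver cancer line. One culture had received lentiviral particles with a scrambled hairpin RNA (shCT, the control), and the other had received particles with a hairpin against NR2E3 (shNR2E3, the depleted cells), an orphan nuclear receptor best known from photoreceptors. Each condition was 1 library, so the differences below are between these libraries, no test between conditions was possible, and every interval covers counting error only and treats neighbouring peaks as independent. The lists do not measure NR2E3 itself, and more open cells and more open chromatin per cell cannot be told apart in them.

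Distal open chromatin includes enhancers, which bind transcription factors and act on promoters over a distance, and also insulators and alternative promoters that the gene models lack. In liver cells, factors such as HNF4A, HNF1, FOXA and C/EBP occupy many of these sites, together with AP-1 and the insulator protein CTCF. A peak's nearest gene is the one with the closest start site, and it need not be the gene that the site acts on.

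Members were selected on their position and class among peaks already called, and the chromosome was chosen by its number of peaks, so the density is a description. Each member is a fixed span of 300 bp with a score, the peak caller's tag count scaled to library size. The scores were whole multiples of 0.407 for the common and control-specific members and of 0.507 for the depleted-specific ones, which gives each member a whole number of tags, the sequenced fragments counted in it. The median was 17 tags on the common list, 14 on the control-specific list and 12 on the depleted-specific list. The exact Poisson 95% interval around 12 tags runs from 6.20 to 21.0 and that around 14 tags from 7.65 to 23.5, so membership of a specific list rests on few fragments.

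Sequences of 4 members show what the highest scores stood on. They are the central 120 bases of the peaks in the hg38 reference, plus strand. The first pair are the highest scores of the common list (144, 354 tags, chr17:26603760-26604060) and of the depleted-specific list (142.5, 281 tags, chr17:26619868-26620168), both between genes near the centromere with LOC105371703 as nearest gene. The capitals mark the longest run that both share, 29 bases.
Common, chr17:26603851-26603970: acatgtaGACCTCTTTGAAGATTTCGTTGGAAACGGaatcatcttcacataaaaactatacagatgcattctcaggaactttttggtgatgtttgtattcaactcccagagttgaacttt
Depleted-specific, chr17:26619959-26620078: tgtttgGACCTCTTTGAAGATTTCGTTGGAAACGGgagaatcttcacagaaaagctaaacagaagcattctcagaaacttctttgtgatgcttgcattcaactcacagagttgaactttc
The next pair are the highest scores of members whose sequence is not repeated elsewhere in the genome, on the common list near MIR21 (14.2, 35 tags, intron 11 of VMP1) and on the depleted-specific list in intron 2 of ABR (14.2, 28 tags). Neither stretch holds any of the 9 motifs searched, so neither has capitals.
MIR21, chr17:59837611-59837730: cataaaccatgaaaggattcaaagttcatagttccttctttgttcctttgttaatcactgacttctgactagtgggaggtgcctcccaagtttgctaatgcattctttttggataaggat
ABR, chr17:1115298-1115417: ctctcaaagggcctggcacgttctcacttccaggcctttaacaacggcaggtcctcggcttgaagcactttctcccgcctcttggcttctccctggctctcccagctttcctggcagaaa

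Members with the letters of liver-factor motifs are shown next, 120 bases each, with every motif searched in capitals. The PCYT2 member (14.2, 28 tags, depleted-specific, intron 1, 600 bp from the start site) has the highest score with the HNF4A letters, which here run on from the nuclear receptor core letters. PCYT2 encodes an enzyme of phosphatidylethanolamine synthesis. The MRPS23 member (10.6, 26 tags, control-specific, intergenic) has the highest score with the HNF1 letters, on the minus strand, and also holds the FOXA letters. The PECAM1 member (11, 27 tags) has the highest score of the control-specific list and holds the FOXA letters.
PCYT2, chr17:81910513-81910632: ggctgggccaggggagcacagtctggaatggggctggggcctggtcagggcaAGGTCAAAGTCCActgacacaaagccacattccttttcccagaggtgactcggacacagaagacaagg
MRPS23, chr17:57833526-57833645: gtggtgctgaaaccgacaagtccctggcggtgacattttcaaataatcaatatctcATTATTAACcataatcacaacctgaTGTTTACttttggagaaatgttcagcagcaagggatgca
PECAM1, chr17:64396280-64396399: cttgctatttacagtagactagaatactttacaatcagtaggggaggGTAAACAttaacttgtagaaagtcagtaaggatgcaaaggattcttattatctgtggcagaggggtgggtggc

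Chromosome 17 held 27.99 distal peaks per Mb of determined sequence, the fourth highest of 23 chromosomes, against 15.5 on the other 22 pooled, 58.5 on chromosome 16 and 129 on chromosome 20. Per protein-coding gene it held 1.96, below the 2.33 of the other chromosomes. Depleted-specific members outnumbered control-specific ones 1.58 to 1 (1.43 to 1.74), against 1.48 (1.45 to 1.51) on the other chromosomes, 1.15 (1.08 to 1.23) on chromosome 16 and 1.13 (1.08 to 1.19) on chromosome 20. Among the other chromosomes, the 5 with over 20 distal peaks per Mb had a pooled ratio of 1.23. The 17 with fewer had a pooled ratio of 2.70. The depleted share of specific peaks was 61.2% here and 59.7% on the other chromosomes, a difference of 1.57 percentage points whose interval spans 0 (-0.831 to 3.94). It was 8.15 points above that of chromosome 20 (5.52 to 10.8) and 7.66 points above that of chromosome 16 (4.83 to 10.5). The direction of the ratio rests on what is held equal between the libraries: among members of 15 or more tags it was 0.779 (0.645 to 0.9405), and among members with a score of 6 or more it was 3.14 (2.73 to 3.63).

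The common list held a larger share of the members than of the other chromosomes pooled, though 7 of those 22 had a higher share, up to 34.03%. It was 25.6% (23.9 to 27.5) against 21.9% on the other chromosomes, a difference of 3.73 points (1.92 to 5.60), and against 19.4% on chromosome 16 and 17.1% on chromosome 20.

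The arms differed in density and in mix. With the boundary at 25 Mb, the p arm held 191 members, of which 56 were common, 28 control-specific and 107 depleted-specific, or 7.71 per Mb. The q arm held 2130, of which 539 were common, 641 control-specific and 950 depleted-specific, or 36.6 per Mb. The q arm was 4.75 times as dense (4.10 to 5.54). By list the ratio was 4.10 for common, 9.76 (6.69 to 14.8) for control-specific and 3.78 for depleted-specific members. The depleted share of specific members was 79.3% in the p arm and 59.7% in the q arm, 19.5 points lower (11.4 to 26.5).

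The change did not lie at the centromere but within the q arm, near 38 Mb. This boundary was picked after the counts per bin were seen, so the values on either side are a description. The 13 Mb of q arm before 38 Mb held 122 members (38 common, 17 control-specific, 67 depleted-specific), or 9.42 per Mb, 1.22 times the density of the p arm with an interval that spans 1 (0.966 to 1.54). Their depleted share was 79.8%, 0.503 points from that of the p arm (-11.6 to 11.7). Left of 38 Mb, p arm included, lay 313 members (94 common, 45 control-specific, 174 depleted-specific) in 37.7 Mb with 497 protein-coding genes, at 8.30 per Mb. Right of it lay 2008 (501 common, 624 control-specific, 883 depleted-specific) in 45.2 Mb with 689 genes, at 44.4 per Mb.

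**Figure D1:**
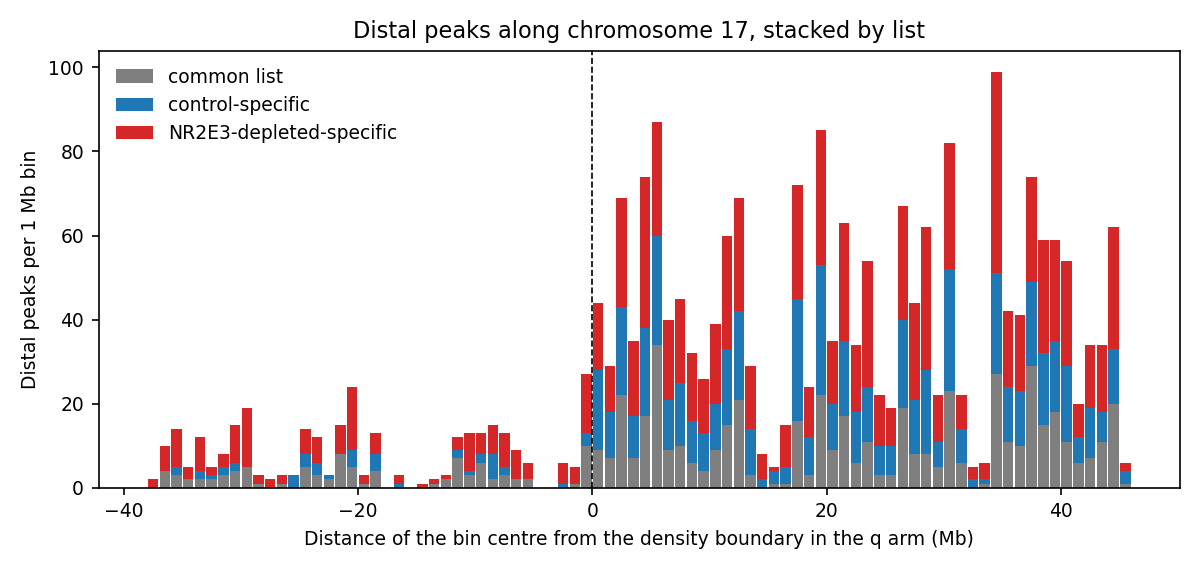
Distal peaks per 1 Mb bin of chromosome 17 (y axis), stacked by list, against the distance in Mb of the bin centre from the 38 Mb boundary (x axis, dashed line at 0). Bins left of the boundary hold 0 to 27 members and those right of it 5 to 99.

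The right side was 5.36 times as dense as the left (4.75 to 6.05), and 4.63 times as dense per protein-coding gene. The step was steepest on the control-specific list, at 11.6 (8.55 to 16.0), against 4.45 (3.56 to 5.61) on the common list and 4.24 (3.60 to 5.01) on the depleted-specific list. Compared with the other chromosomes pooled, the left side had 0.535 times the density of distal peaks and the right side 2.87 times. That pool is uneven, as 5 chromosomes with over 20 distal peaks per Mb hold 32190 of its 43822. Those 5 ran from 23.1 to 129 per Mb. The 17 with fewer ran from 0.413 to 11.9 per Mb, a range that holds the left side's 8.30. Promoter-class peaks, which are not members, stepped up less, by 1.96 per Mb (1.62 to 2.37) and 1.69 per gene. DNA copy number was not measured in these lists, and its part in the step was not tested.

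The mix of the specific lists changed at the same place. Left of 38 Mb there were 3.87 depleted-specific members per control-specific member (2.77 to 5.49), and right of it 1.42 (1.28 to 1.57), so the depleted share fell from 79.5% to 58.6%, 20.9 points lower (14.4 to 26.6). The left ratio was 2.73 times the right (1.92 to 3.94). With 15 or more tags the left ratio was 2.14 (1.25 to 3.79) and the right one turned to 0.658 (0.534 to 0.809), with more control-specific members. With a score of 6 or more the left ratio was 6.67 (4.20 to 11.1) and the right 2.83 (2.43 to 3.29). The left ratio was then 3.26 times the right at equal tags (1.81 to 5.97) and 2.36 times at equal score (1.44 to 4.02), so the gap between the sides held where the direction on the right did not. Among the other chromosomes, the 5 with over 20 distal peaks per Mb had ratios from 1.03 to 1.57, a range that holds the value of the right side. The 17 with fewer had ratios from 1.57 to 4.27, where the highest is chromosome X with 64 peaks and the next is 3.36. The left side's 3.87 lay above the 1.57 to 3.13 of the 6 chromosomes with 6 to 12 peaks per Mb, though its interval reaches below 3.13.

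**Figure D2:**
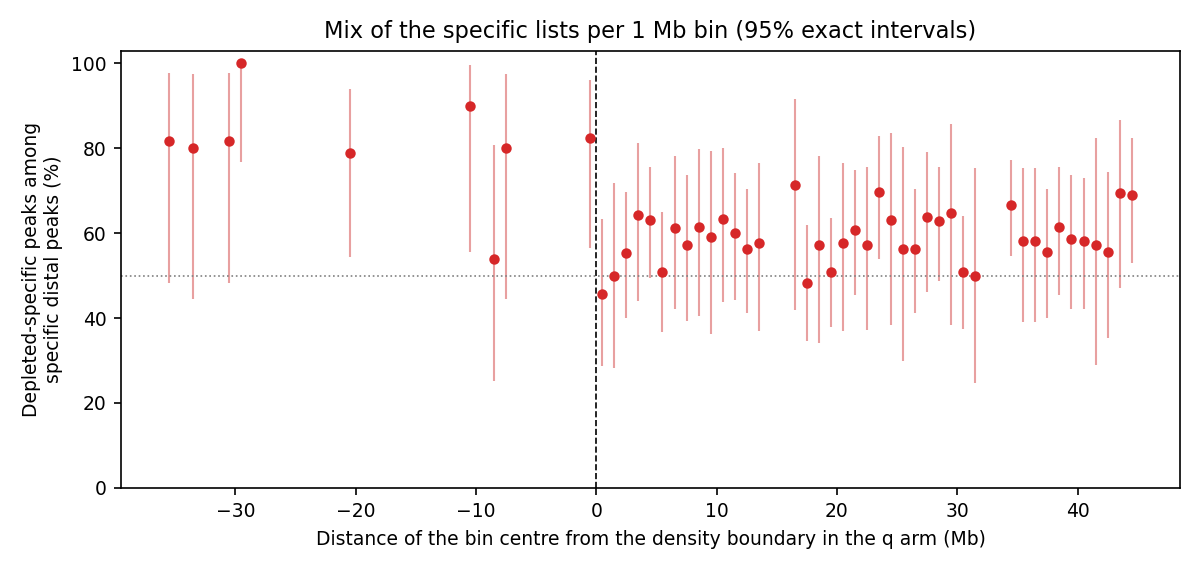
Depleted-specific peaks as a percentage of the specific distal peaks (y axis) in each 1 Mb bin with 10 or more of them, with exact 95% intervals, against the distance in Mb from the 38 Mb boundary (x axis). Left of the dashed line 8 of 9 bins had at least 2 depleted-specific per control-specific member, and right of it 5 of 41. Only 9 of the 38 left bins reached 10, mostly through depleted-specific members, so this contrast can follow in part from the filter. Over all bins, depleted-specific members were more numerous in 32 of 38 on the left and 40 of 46 on the right, and less numerous in 2 and 4. The dotted line marks equal numbers.

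The control library's own distal peaks were also split by list. This split leaves out the depleted-specific list but uses the same control-specific members as the ratios above, so it is not independent of them. Of the control library's 139 distal peaks left of 38 Mb, 67.6% were on the common list (59.2 to 75.3), against 44.5% of 1125 on the right (41.6 to 47.5). Of the depleted library's peaks, 35.1% and 36.2% were common. A peak with more tags was more often common: over the chromosome the share rose from 15.8% under 13 tags and 31.4% at 13 to 15 tags to 59.8% at 16 to 19 tags, 84% at 20 to 24 tags and 96.1% at 25 tags or more. At 13 to 15 tags the share was 52.5% on the left (39.3 to 65.4, 32 of 61) and 29.3% on the right (25.8 to 33.1, 182 of 621). At 16 to 19 tags it was 77.3% on the left (62.2 to 88.5) and 57.0% on the right (51.0 to 62.9). Only at 13 to 15 tags were the intervals of the sides apart. In every other class, 16 to 19 tags included, they overlapped.

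**Figure D3:**
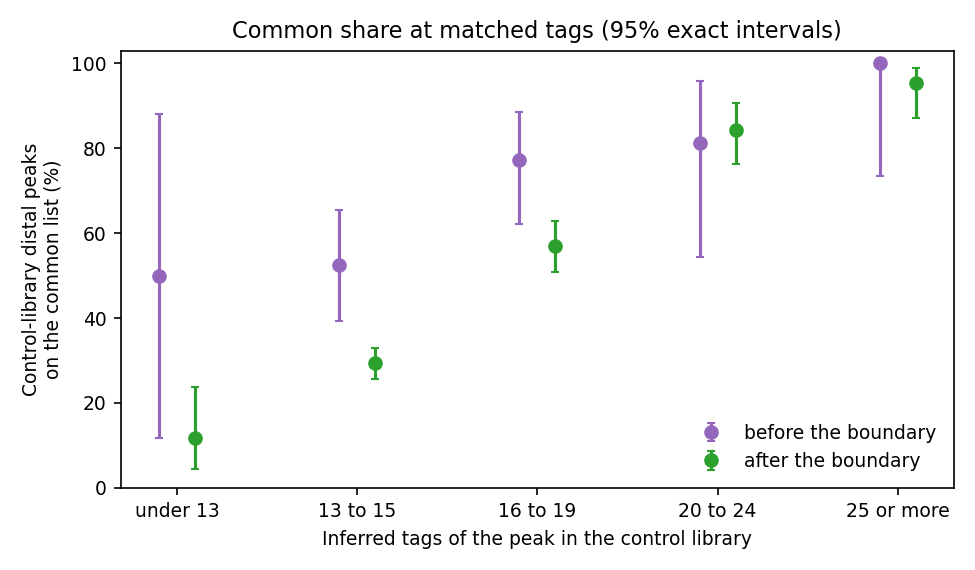
Percentage of the control library's distal peaks that are on the common list (y axis, exact 95% intervals) by their inferred tags (x axis), left (before) and right (after) of the 38 Mb boundary. At 13 to 15 tags the shares are 52.5% before and 29.3% after it.

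Within each side the density was fairly even at a scale of 10 Mb, the centromere stretch apart. The first 10 Mb held 93 members (26 common, 9 control-specific, 58 depleted-specific), 10 to 20 Mb held 92 (29, 18 and 45 in the same order) and 28 to 38 Mb held 94 (26, 14 and 54). The stretch from 20 to 28 Mb, with the centromere, held 34, or 4.34 per Mb. The mix on the left was less even. Depleted-specific per control-specific members numbered 6.44 (3.17 to 14.8) in the first 10 Mb and 2.50 (1.42 to 4.59) from 10 to 20 Mb. They numbered 4.25 (1.39 to 17.4) from 20 to 28 Mb and 3.86 (2.11 to 7.52) from 28 to 38 Mb, so these intervals overlap. From 38 Mb on, successive 10 Mb held 481, 406, 422 and 489 members, with 1.31, 1.27, 1.602 and 1.42 depleted-specific per control-specific member, and the last stretch from 78 Mb held 210 at 1.61. At the step itself, 37 to 38 Mb held 27 members (10 common, 3 control-specific, 14 depleted-specific) and 38 to 39 Mb held 44 (9, 19 and 16).

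In 1 Mb bins the left side had a median of 6 members (0 to 27) with 4 empty bins, and the right side a median of 40.5 (5 to 99) with none empty. Depleted-specific members outnumbered control-specific ones in 72 of 84 bins and were outnumbered in 6, while among members of 15 or more tags they outnumbered them in 25 and were outnumbered in 33. Of the 50 bins with at least 10 specific members, 13 held at least 2 depleted-specific per control-specific member, or 26.0%, against 40.7% of such bins over all chromosomes. Bins with more control-specific members numbered 2, or 4%, against 11.2%, and they were 38 to 39 Mb (19 against 16) and 55 to 56 Mb (29 against 27). Both shares lay below the background, and intervals at single bins are wide. Among peaks of 15 or more tags 0 bins had the depleted excess and 13 the control excess. The 8 to 9 Mb bin had 0 control-specific and 14 depleted-specific members.

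The 5 densest bins held 427 members, 18.4% of all (16.8 to 20.03), and each had its own setting. The densest, 72 to 73 Mb, held 99 members (27 common, 24 control-specific, 48 depleted-specific) around a single protein-coding gene start, that of SOX9, with the long noncoding RNA genes LINC02003 (31 members), LINC00673 (24) and LINC00511 (21) as the commonest nearest genes. The 43 to 44 Mb bin held 87 (34, 26 and 27) among 18 protein-coding genes, with ETV4, an ETS-family transcription factor, nearest to 16. The 57 to 58 Mb bin held 85 (22, 31 and 32), of which 18 had MSI2, an RNA-binding protein gene, as nearest gene. The 68 to 69 Mb bin held 82 (23, 29 and 30), with LINC01482 nearest to 16. The bins 42 to 43 Mb (17, 21 and 36) and 75 to 76 Mb (29, 20 and 25) tied at 74 members. Dense bins were thus found both where genes are few, as at 72 Mb, and where they are many, as at 42 Mb with 44 gene starts.

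On the right, 45 bins were mostly determined sequence. Across them the number of control-specific members followed that of depleted-specific ones (Spearman's rank correlation 0.896) and of common ones (0.890). All members followed the number of genes (0.309) and GC content (0.400) less closely. These are descriptions over neighbouring bins of the same libraries. On the left the rank correlation between control-specific and depleted-specific members was 0.476 over 38 bins, with few members per bin.

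Members were absent from long stretches on the left. The 4 empty bins were 20 to 21, 22 to 23, 33 to 34 and 34 to 35 Mb, and 23 to 24 Mb held 1 member. The longest stretch without a member ran 2.14 Mb between the centres chr17:32912621 and 35051821, with no undetermined base and 13 protein-coding genes, among them the chemokine genes CCL1, CCL2, CCL7, CCL8, CCL11 and CCL13. Another of 0.928 Mb from 36219532 to 37147470 held 12 genes, LHX1, AATF and GGNBP2 among them. The median spacing of neighbouring members was 36.5 kb on the left and 8.53 kb on the right.

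The centromere region from 22 to 27 Mb stood apart by score. It held 18 members (10 common, 2 control-specific, 6 depleted-specific) and no protein-coding gene start, and 17 of them were repeated sequence, meaning that over 50% of their 31-base words occur more than once in hg38. Around all 18 the sequence matched itself best at a shift of 171 bp, the unit length of alpha satellite DNA, with 45.1% to 74.6% of bases equal. The member of score 144 had words with a median of 1160 copies, and the depleted-specific one of 142.5 had 574.5. Outside this region no member scored over 14.2. Reads from such repeats cannot be assigned to a single copy, so these scores and their lists are uncertain. Over the whole chromosome 86 members (3.71%) were repeated sequence, 22 on the left and 64 on the right, and leaving them out gave a left-to-right ratio of 2.88 in place of 2.73.

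The members lay nearer to start sites than distal peaks elsewhere, at a median of 15.1 kb against 31.1 kb. Within 3 kb of a start site lay 13.7% of members, against 8.45% elsewhere. The chromosome has 14.3 protein-coding genes per Mb against 6.64 on the others, and the part of gene density in these distances was not tested. The median distances were 13.7 kb on the common list, 17.2 kb on the control-specific list and 15.1 kb on the depleted-specific list. Of intron members 34.2% were in the first intron. GENCODE places 57.7% of members (55.7 to 59.8) inside the span of a protein-coding gene, with 54.6% of common, 57.8% of control-specific and 59.4% of depleted-specific members. The sides of the boundary had like shares, 56.9% (51.2 to 62.4) and 57.9% (55.7 to 60.04). A peak of the other specific list lay within 1000 bp of 73 control-specific members (10.9%) and 71 depleted-specific ones (6.72%), against 15% and 10.1% on the other chromosomes.

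The host genes with the most members inside them were MSI2 with 49 (13 common, 17 control-specific, 19 depleted-specific), PRKCA with 42 (4, 14 and 24), BCAS3 with 34 (8, 7 and 19), SLC39A11 with 31 (10, 4 and 17) and SEPTIN9 with 22 (8, 7 and 7). These are long genes, of 220 to 715 kb, and all lie right of 38 Mb. Per length the HLF gene was denser, with 20 members in 60.2 kb, than MSI2 with 49 in 429 kb. In all 425 protein-coding genes had a member inside and 28 had 10 or more. These genes and the order were taken after the values were seen.

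By nearest start site the members named 719 genes, of which 551 are protein-coding. A single member fell to 301 genes, and 43 had 10 or more, 41 of them on the right. All 3 lists were present at 136 genes, depleted-specific members alone at 203, control-specific alone at 97 and common alone at 83. Depleted-specific members were more numerous at 378 genes, control-specific ones at 180, and they were equal at 161, which include the 83 with common members alone. Among members of 15 or more tags the tally turned, with more control-specific at 153 genes, more depleted-specific at 107 and equal numbers at 175. With a score of 6 or more it was 89, 379 and 134.

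**Figure D4:**
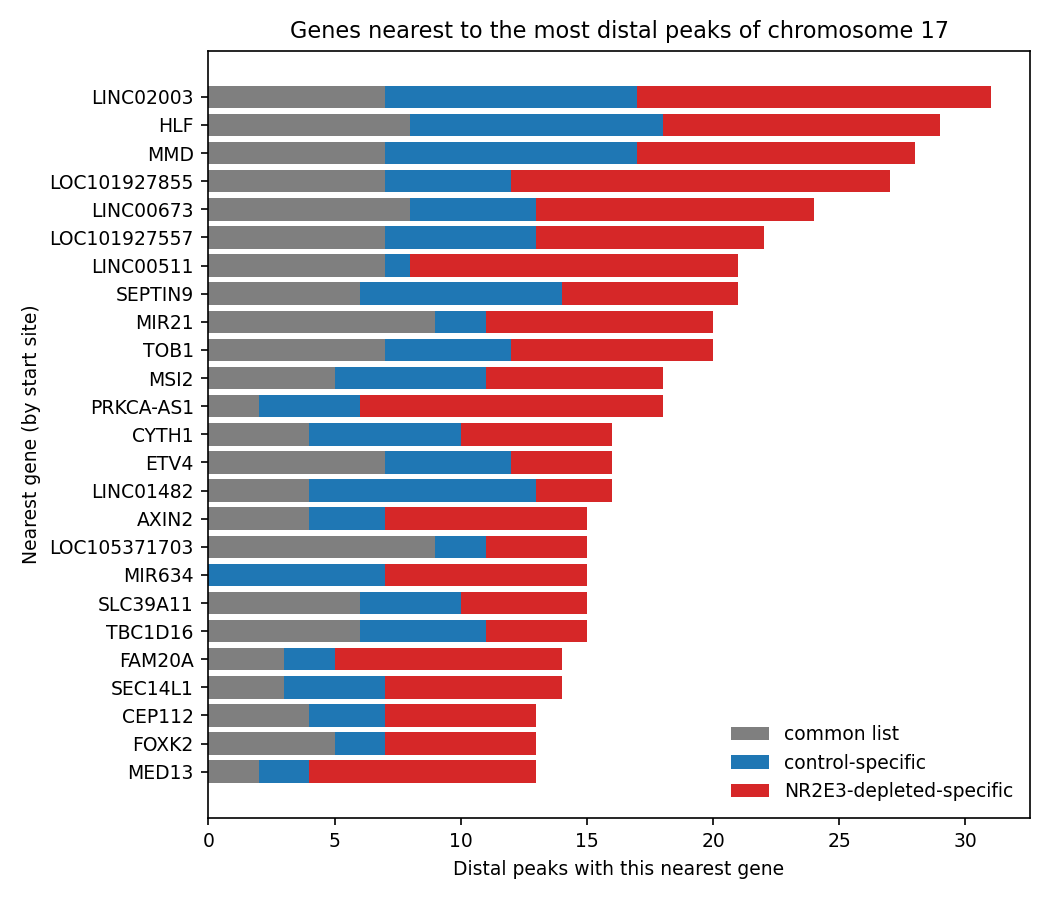
Number of distal peaks (x axis), stacked by list, for the 25 genes nearest to the most of them (y axis). LINC02003 has 31, HLF 29 and MMD 28, and the mix ranges from LINC00511 with 1 control-specific and 13 depleted-specific to LINC01482 with 9 and 3.

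The 10 genes nearest to the most members took 243 of them (10.5%). LINC02003 had 31 (7 common, 10 control-specific, 14 depleted-specific), LINC00673 had 24 (8, 5 and 11) and LINC00511 had 21 (7, 1 and 13). These 3 noncoding genes lie beyond SOX9, a transcription factor of biliary and progenitor cells, with LINC02003 inside the span of LINC00511, and their 76 members spanned 614 kb at 72245344 to 72859412. Of the 21 named for LINC00511, 18 lay inside SLC39A11, a zinc transporter gene. SOX9 itself was nearest to 9 (1, 4 and 4).

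HLF, a bZIP transcription factor of the liver and of circadian output, had 29 members (8 common, 10 control-specific, 11 depleted-specific). Its neighbour MMD, a membrane protein gene named for macrophage differentiation, had 28 (7, 10 and 11). Together they made 57 members within 355 kb with 1.10 depleted-specific per control-specific member (0.573 to 2.12). The mix at this cluster was near even, and 2 of its members were repeated sequence.

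LOC101927855 was nearest to 27 members (7 common, 5 control-specific, 15 depleted-specific), all inside BCAS3, a gene linked to cell migration, with a ratio of 3 (1.04 to 10.6). LOC101927557 had 22 (7, 6 and 9), SEPTIN9, a cytoskeletal GTPase gene, had 21 (6, 8 and 7), and TOB1, an antiproliferative gene, had 20 (7, 5 and 8). MIR21, the gene of an abundant oncogenic microRNA, also had 20 (9, 2 and 9), with scores from 6.08 to 14.2 over 78.8 kb, 8 of them inside VMP1, an autophagy gene, and 2 of repeated sequence. Its depleted share was 81.8% of 11 specific members, with an interval from 48.2% to 97.7%.

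Genes with the largest excess of depleted-specific members were LINC00511 (13 against 1), LOC101927855 (15 against 5) and PRKCA-AS1 (12 against 4, with 2 common). All 18 members of PRKCA-AS1 lay inside PRKCA, the gene of protein kinase C alpha. The excess at LINC00511 was 13.0 to 1 with an exact interval of 1.95 to 552, and that at PRKCA-AS1 was 3 with an interval that spans 1 (0.909 to 12.8). Since the genes were picked for the excess, these values are descriptions. Among members of 15 or more tags LINC00511 kept 4 depleted-specific against 1 control-specific, LOC101927855 had 3 against 1 and PRKCA-AS1 turned to 0 against 1.

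The largest control-specific excess was at LINC01482, with 9 control-specific, 3 depleted-specific and 4 common members within 88.1 kb, a ratio of 0.333 whose interval spans 1 (0.0580 to 1.34). PECAM1, which encodes the adhesion molecule CD31, followed with 5 against 1 and 2 common. After it came genes tied at an excess of 3, among them MRPS23, a mitochondrial ribosomal protein gene, with 4 against 1, and NOTUM, a secreted Wnt inhibitor, with 3 against 0. Among members of 15 or more tags LINC01482 had 6 control-specific against 1 depleted-specific and PECAM1 3 against 0. As listed, no gene had as large an excess of control-specific as LINC00511 had of depleted-specific members.

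Outside repeated sequence the highest scores were modest. On the common list MIR21, GRB2, an adaptor of receptor tyrosine kinases (intron 2 of 5, 75383143 to 75383443), and CENPX, a kinetochore protein gene, each had a member of 14.2. On the control-specific list the highest were PECAM1 (11), MRPS23 (10.6) and ATP5MC1 (10.2), the last named for a subunit of ATP synthase. The lists call the PECAM1 member intergenic at 64396189 to 64396489, while GENCODE places it inside PECAM1. On the depleted-specific list they were ABR and PCYT2 (14.2 each) and LGALS3BP (13.2), a secreted glycoprotein gene. A score of 10 or more was reached by 74 common, 3 control-specific and 25 depleted-specific members. Scores are not on the same tag scale between the specific lists, and 14.2 stands for 35 tags on the common and 28 on the depleted-specific list.

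Liver genes were well covered. Of 18 genes with roles in liver function, 16 were nearest to a member, with 55 members in all (15 common, 15 control-specific, 25 depleted-specific), against 537 of 1186 protein-coding genes of the chromosome (45.3%). Depleted-specific members were more numerous at 8 of the 16, control-specific ones at 3, and they were equal at 5, among them SLC13A5, SERPINF1 and SERPINF2 with common members alone. Over all protein-coding genes the lists gave 770 depleted-specific and 487 control-specific members.

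Of the transcription factors, SREBF1, the regulator of lipid synthesis genes, had 2 common and 3 depleted-specific members.

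Of the enzymes, FASN, the fatty acid synthase gene, had 2 common and 2 depleted-specific members, and also 2 depleted-specific promoter peaks. G6PC, glucose-6-phosphatase of gluconeogenesis, had 2 common and 1 depleted-specific. ALDH3A2, a fatty aldehyde dehydrogenase gene, had 1 common, 1 control-specific and 2 depleted-specific. ACLY, ATP citrate lyase, had 1 common and 1 control-specific, PEMT of phosphatidylcholine synthesis had 1 of each specific list, and ACACA, acetyl-CoA carboxylase, had 1 depleted-specific.

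Of transporters and secreted proteins, ABCC3, a basolateral exporter of conjugates, had 10 members (1 common, 5 control-specific, 4 depleted-specific) and APOH, a plasma glycoprotein, had 9 (2, 2 and 5). The citrate transporter gene SLC13A5 and the serpins SERPINF1 and SERPINF2 had 1 common member each. VTN, vitronectin, had 1 control-specific member, and the asialoglycoprotein receptor genes ASGR1 and ASGR2 had 1 depleted-specific member each. The genes with none were SHBG, sex hormone-binding globulin, and GCGR, the glucagon receptor.

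NR2E3 belongs to the nuclear receptors, and 3 of the 4 receptor and corepressor genes of the chromosome that were listed had members. NR1D1, a circadian repressor, had 2 common and 2 control-specific members, THRA, a thyroid hormone receptor, had 1 of each specific list, and RARA, a retinoic acid receptor, had 1 control-specific. NCOR1, a corepressor, had no member. The group held 4 control-specific and 1 depleted-specific members, too few to set its mix apart from the 487 and 770 of all protein-coding genes, of which 45.3% had a member.

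In the Wnt group, AXIN2, a feedback inhibitor in the beta-catenin destruction complex, had 15 members (4 common, 3 control-specific, 8 depleted-specific) with scores from 4.88 to 9.63. RNF43, a ligase that removes Wnt receptors, had 10 (5, 2 and 3). The ligand gene WNT3 had 1 control-specific and 4 depleted-specific, WNT9B had 1 common, and the adaptor gene DVL2 had none. The depleted-specific to control-specific ratio at AXIN2 was 2.67 with an interval that spans 1 (0.640 to 15.6). In all 4 of the 5 genes had a member, with 6 control-specific and 15 depleted-specific members. Over all protein-coding genes 45.3% had a member, and 59.1% on the right, where 4 of the 5 lie. The mix there was 487 control-specific to 770 depleted-specific over the chromosome. NOTUM, a Wnt inhibitor outside this fixed list, had 1 common, 3 control-specific and 0 depleted-specific. Of the Sp factor genes, SP2 had 1 control-specific and 2 depleted-specific, and SP6 had 1 control-specific.

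Of 17 tumour genes 13 were nearest to a member, with 11 common, 13 control-specific and 26 depleted-specific members. Over all protein-coding genes 45.3% had a member, and 59.1% on the right, where 14 of the 17 lie, and the mix was 487 control-specific to 770 depleted-specific. PRKCA had 13 (2 common, 5 control-specific, 6 depleted-specific). The cytokine signalling genes STAT3 (0, 3 and 4) and STAT5B (2, 1 and 4) had 7 each, as did GRB2 (4, 1 and 2). ERBB2, a receptor tyrosine kinase gene, had 2 depleted-specific members, and BRCA1, a DNA repair gene, had 2 common and 1 depleted-specific. The 4 with none were MAP2K4, FLCN, BIRC5 and SRSF2, of which MAP2K4 and FLCN lie left of 38 Mb.

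Clustered gene families were covered to different degrees. HOXB8 alone of 10 HOXB genes was nearest to a member, and 1 of 6 SLFN genes, 3 of 7 MYH genes, 4 of 17 CCL genes and 9 of 27 type I keratin genes were. The MYH genes had 4 members and the CCL genes 6, of which 4 and 5 were depleted-specific and none control-specific, where all protein-coding genes left of 38 Mb had 127 depleted-specific and 32 control-specific members. Of the 4 MYH members 2 were at MYH10 (8474207 to 8631376), which lies apart from the other MYH genes listed, found from 10300865 on. The MYH and SLFN genes, and the 16 CCL genes with coordinates, lie left of 38 Mb, where 130 of 497 protein-coding genes had a member (26.2%), against 407 of 689 on the right (59.1%). The HOXB and keratin genes lie on the right.

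Sequence composition was close to that of the chromosome. The median GC content of the members was 46.3%, against 45% in 276357 back-to-back windows of 300 bases over chromosome 17 and 43.7% in distal peaks elsewhere. It was 48% on the common list and 45.3% on both specific lists.

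Motif letters of liver factors were more frequent in the members than in the windows. CAAAGTCCA (HNF4A) was in 1.38% of members against 0.350% of windows, 3.94 times as often, a difference of 1.03 points (0.595 to 1.59). AGNNGGCGC (the core of the CTCF motif) was in 3.66% against 1.30%, GTTAATNAT (HNF1) in 1.81% against 0.918%, TGTTTAC (FOXA) in 6.64% against 3.55%, TGANTCA (AP-1) in 12.8% against 8.10% and TTGCNNAA (C/EBP) in 17.8% against 12.5%. GGGCGG (Sp1) was in 9.52% against 7.53% and AGGTCA (the core letters of nuclear receptor sites) in 26.4% against 22.002%. For CCAAT (NFY) the difference spanned 0, 33.4% against 31.9% (-0.447 to 3.45 points). Both strands were searched for exact letters, and a match is a description, not a bound site. The windows also cover promoters and exons, so they are not a matched baseline for distal peaks.

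The lists differed in some of these. Sp1 letters were in 14.6% of common, 9.27% of depleted-specific and 5.38% of control-specific members, the common list 9.24 points above the control-specific one (5.85 to 12.7) and the depleted-specific list 3.89 points above it (1.28 to 6.37). The control-specific share lay below the 7.53% of all windows, promoters and exons included. CTCF letters were 2.07 points more frequent in depleted-specific than in control-specific members (4.16% against 2.09%, 0.281 to 3.75) and AP-1 letters 3.51 points (13.5% against 10.01%, 0.286 to 6.61). Common members exceeded control-specific ones by 6.11 points in the nuclear receptor core letters (29.6% against 23.5%, 1.13 to 11.1), by 4.77 points in AP-1 letters (1.03 to 8.57) and by 2.45 points in CTCF letters (0.378 to 4.65). FOXA letters were 3.33 points more frequent in common than in depleted-specific members (0.658 to 6.22). For HNF4A, HNF1, C/EBP and NFY each difference between lists had an interval that spans 0. On the other chromosomes the common, depleted-specific and control-specific lists stood in the same order for Sp1 (7.41%, 5.27% and 4.06%). The order was also shared for CTCF (2.97%, 2.19% and 1.41%) and AP-1 (15.1%, 13.8% and 10.9%), so it is not particular to chromosome 17. HNF4A letters were in 2.41%, 1.47% and 0.761% there, against 1.18%, 1.61% and 1.20% here.

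**Figure D5:**
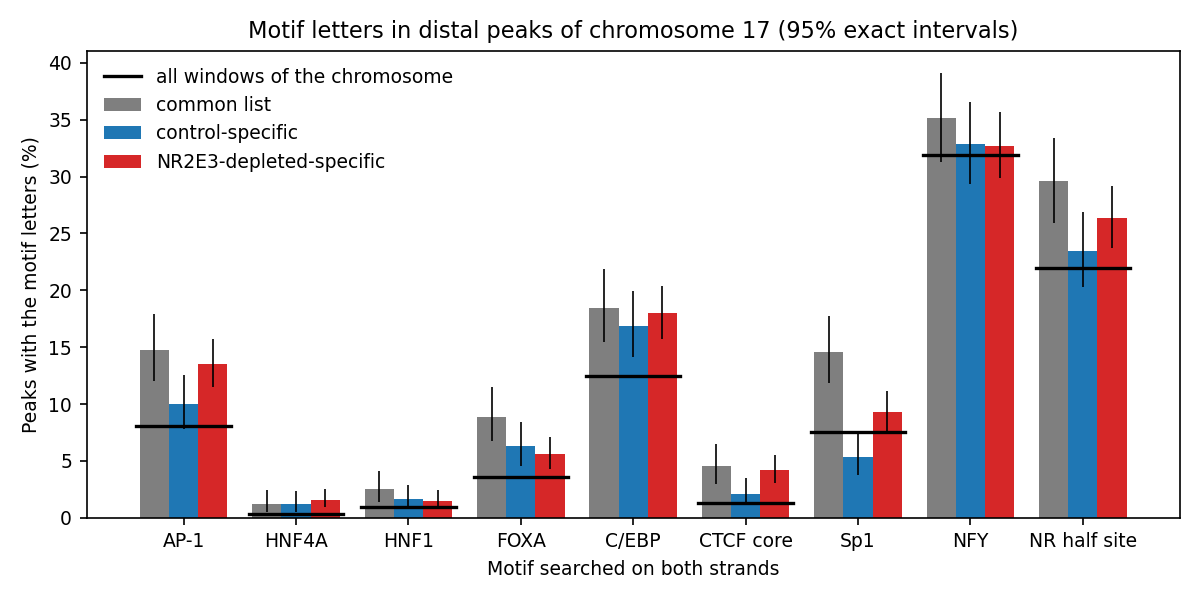
Percentage of distal peaks with the letters of each motif (y axis), by list, with exact 95% intervals; black lines give the share of all 300-base windows of the chromosome. For Sp1 the bars stand at 14.6% (common), 5.38% (control-specific) and 9.27% (depleted-specific), with the line at 7.53%.

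Between the sides of the boundary the difference in share had an interval that spans 0 for all 9 motifs, which does not show that the shares are alike. AP-1 letters were in 12.1% of left and 12.9% of right members, C/EBP letters in 16% and 18.1%, and FOXA letters in 8.31% and 6.37%. HNF4A letters were in 2.56% of left and 1.20% of right members (8 of 313 and 24 of 2008), a difference of 1.36 points (-0.197 to 3.82). CTCF letters were in 5.11% and 3.44%, a difference of 1.68 points (-0.664 to 4.82). The list mix also differs between the sides, and its part was not tested.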

How the data were processed

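Open chromatin was measured by FAIRE-seq in HepG2 cells with scrambled or NR2E3-directed hairpin RNA, 1 library each. Per the labels, the authors' notes name bcl2fastq 2.17, Trimmomatic 0.39, Bowtie2 2.4.5 and SAMtools 1.14 with build hg38. Peaks were called and annotated with HOMER at a q-value threshold of 0.05. The deposited peak score is HOMER's normalised tag count, on the control library's scale in the common list. How common and specific peaks were separated is not given in the sources used here. Tags per peak were computed from the step of the scores, and all scores under 10 came out whole within 0.0051; assuming HOMER's scale of 10 M tags, the control library held 24.6 M and the depleted one 19.7 M tags.

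Distal peaks were counted per Mb of determined hg38 sequence in 1 Mb bins. Shares have exact Clopper-Pearson intervals, ratios exact binomial intervals, and the ratio of ratios the exact conditional interval. Differences have intervals of Newcombe's form, built from the exact limits of each share. With 1 library per condition no test was run. Genes came from the lists' nearest start site and from GENCODE 44 (656 of 719 matched by symbol). The scripts ran under Python 3.11.15 with scipy 1.17.1, pandas 2.3.3 and numpy 2.4.6, and were tested on simulated data.

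Named genes were the 10 with most members, the 3 with the largest excess each way, the nearest genes of the 3 highest scores per list, fixed lists, and the densest and emptiest bins; 2 genes of these lists are not reported here. Members, lists and rules were chosen with earlier results of these data known. Alternatives changed the score or tag threshold, merging, distance to start sites, bins, boundaries and repeated sequence.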

Additional observations from a re-analysis of the deposited data

How the results depend on the processing

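No paired analysis was possible because each condition had 1 library, so leaving out a replicate was not done. Over all results and alternatives 52 values stayed close to those reported, 22 moved and 2 reversed. The tag threshold and the boundaries at 37, 38 and 39 Mb were chosen after seeing the data.

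With a score of 6 or more, the depleted-specific to control-specific ratio was 3.14 (left of 38 Mb 6.67, right 2.83), the common share 29.7%, and the bins with a depleted excess numbered 35 and those with a control excess 0. With 15 or more tags the ratio reversed, to 0.779 overall and 0.658 right of 38 Mb, and on the left it was 2.14; the density ratio at 38 Mb was 4.64, and 0 bins had a depleted and 13 a control excess. These thresholds fall unequally: a score of 6 keeps 38.6% of control-specific and 76.6% of depleted-specific members, and 15 tags keep 38.6% and 19.02%. The ratio of the sides stayed between 2.07 and 3.26 under all 8 alternatives tried on it.

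Per protein-coding gene the density ratio at 38 Mb was 4.63. Over 3000 bp from a start site the intron share was 53.4%. The 10 densest bins of 500 kb held 20.7% of members. With at least 20 specific peaks per bin 4 bins had a depleted excess, and with bins of 2 Mb 1 had a control excess. In 100 bp either side of the centre the motif shares fell with the shorter span, to 9.35% (AP-1), 4.70% (FOXA), 12.5% (C/EBP), 2.93% (CTCF core), 7.24% (Sp1), 24.6% (NFY) and 18.4% (nuclear receptor core letters). Low tag counts limit any statement on a single peak.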
